A study of Mus musculus with 17 samples.

Results

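miR-500-3p and miR-362-3p are 2 microRNAs (miRNAs), small RNAs that lower the output of matching messenger RNAs, and they were followed in mouse serum across 3 groups of animals. They are 2 of 357 miRNA assays on the panel, taken by the assay names mmu-miR-500-3p and mmu-miR-362-3p. They were selected on their measured levels, since how these differ between transgenic and wild-type serum was already known from these data, so every difference from wild type below is a description without a test. Serum came from 7 AT-ATX mice with spontaneous tumors, 7 AT-ATX mice without tumors and 3 healthy controls, wildtype FVB/N animals. The AT-ATX line is transgenic for Autotaxin, an extracellular lysophospholipase D whose product is the lipid mediator lysophosphatidic acid. The labels do not give the promoter of the transgene, the background strain of the transgenic mice, or the age of any animal, and they do not state the site or type of the tumors. RNA from 50 µL of serum per mouse was assayed by SYBR Green PCR over 40 cycles on a pair of panel plates.

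miRNAs are cut from hairpin precursors, and either arm of a hairpin can yield a mature miRNA, named 5p or 3p. Bases 2 to 8 of the mature miRNA, the seed, do most of the target pairing. Several hairpins often lie in 1 host gene and can be transcribed with it. miR-500 and miR-362 are encoded in the gene of the chloride and proton exchanger Clcn5 on the X chromosome, together with miR-532, miR-188 and miR-501. In serum such miRNAs come from blood cells and tissues and circulate bound to proteins or in vesicles.

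RefSeq mature sequences, build GRCm38.p6, are shown for both members and for miR-501-3p, which has the seed of miR-500-3p, with the seed in capitals:
miR-500-3p: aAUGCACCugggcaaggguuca
miR-362-3p: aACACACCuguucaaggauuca
miR-501-3p: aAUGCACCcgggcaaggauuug
Each has 22 bases. miR-500-3p and miR-362-3p are the same at 17 of 22 positions, counted from the 5′ end of miR-500-3p, and differ by U3C and G4A in the seed and by G11U, G12U and G18A after it. miR-500-3p and miR-501-3p are the same at 18 positions, including the whole seed, and differ by U9C, G18A, C21U and A22G. miR-362-3p and miR-501-3p are the same at 15 positions. Whether the assays tell these relatives apart was not tested. Of the 317 mouse assays, 260 matched a RefSeq mature name. Among these, miR-501-3p was the 1 other assay with the seed of miR-500-3p, and none shared the seed of miR-362-3p.

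The hairpins show where each member lies in its precursor, with the mature 3p arm in capitals:
Mir500: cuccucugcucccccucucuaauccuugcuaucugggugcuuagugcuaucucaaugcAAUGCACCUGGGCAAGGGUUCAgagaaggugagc
Mir362: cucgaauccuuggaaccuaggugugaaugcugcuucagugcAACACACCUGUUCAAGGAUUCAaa
The Mir500 hairpin lies at chrX:7237683-7237774 and the Mir362 hairpin at chrX:7241982-7242046, both on the minus strand. Clcn5 spans chrX:7153810-7319358 in the same annotation, and all 5 hairpins of the group lie within it, over 10815 bp. Read in the direction of the minus strand, Mir532 comes first, Mir188 follows after 345 bp, Mir362 after a further 5942 bp, Mir501 after 630 bp and Mir500 after 3468 bp. The annotation used here gives gene spans without exons. The intronic position is therefore taken from the working name of the group and not from the annotation.

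The values are quantification cycles (Ct): fewer cycles mean more RNA, and each cycle stands for about 2 times as much. A level is an assay's Ct taken from the average of the 252 miRNA assays that gave a value in every one of the 17 mice, on a log2 scale, so it is relative to the panel and not an amount per volume. Mice differed in the overall signal: the mean Ct of the 252 assays was 27.95 to 31.67 in tumor mice, 28.14 to 30.50 in tumor-free mice and 27.00 to 29.98 in wild-type mice. Mean Ct of the spike-ins was 25.65 ± 0.31, 25.41 ± 0.35 and 25.53 ± 0.27 in the same order (SD). Both members were detected in all 17 mice. They were on the same plate, as inferred from the last decimals of the Ct values. The replicates are single mice, and no batch is named. Titles of the transgenic mice carry 9 different leading numbers of unstated meaning, 2 of which occur in both groups, in 3 tumor and 3 tumor-free mice. In serum, a change in the number of source cells and a change in RNA per cell cannot be told apart.

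Relative to the panel, miR-500-3p was higher in both transgenic groups than in wild type. Its level in tumor mice had a lowest value of -2.01, a median of -1.15 and a highest of -0.91. In tumor-free mice these values were -2.49, -1.75 and -1.22. The 3 wild-type mice had -3.64, -3.13 and -3.75. On this scale every transgenic mouse, with or without tumors, therefore lay above every wild-type mouse, while the transgenic groups overlapped. The means were -1.39 ± 0.44 in tumor mice (SD, n = 7), -1.77 ± 0.49 in tumor-free mice (n = 7) and -3.51 ± 0.33 in wild-type mice (n = 3). The difference of mean levels was 2.12 for tumor minus wild type and 1.74 for tumor-free minus wild type, which is 4.36-fold and 3.33-fold if each cycle doubles the product. Of 338 assays tested, 18 (5.33%) lay entirely higher in tumor than in wild-type mice and 23 (6.8%) entirely higher in tumor-free than in wild-type mice.

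miR-362-3p had the same order of groups with smaller differences. Its level in tumor mice had a lowest value of 0.64, a median of 1.17 and a highest of 2.22. In tumor-free mice these values were -0.27, 0.82 and 1.14. Wild-type mice had -0.24, -0.49 and -0.25. All 7 tumor mice exceeded the highest wild-type value, and so did 6 of 7 tumor-free mice, the exception being tumor-free replicate 1. With each plate scaled on its own, all 7 did. The means were 1.21 ± 0.52 in tumor mice (SD, n = 7), 0.72 ± 0.49 in tumor-free mice (n = 7) and -0.33 ± 0.14 in wild-type mice (n = 3). The difference of mean levels was 1.54 for tumor minus wild type and 1.05 for tumor-free minus wild type (2.90-fold and 2.07-fold). Both comparisons share the 3 wild-type mice, so they are not independent of each other.

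**Figure D1:**
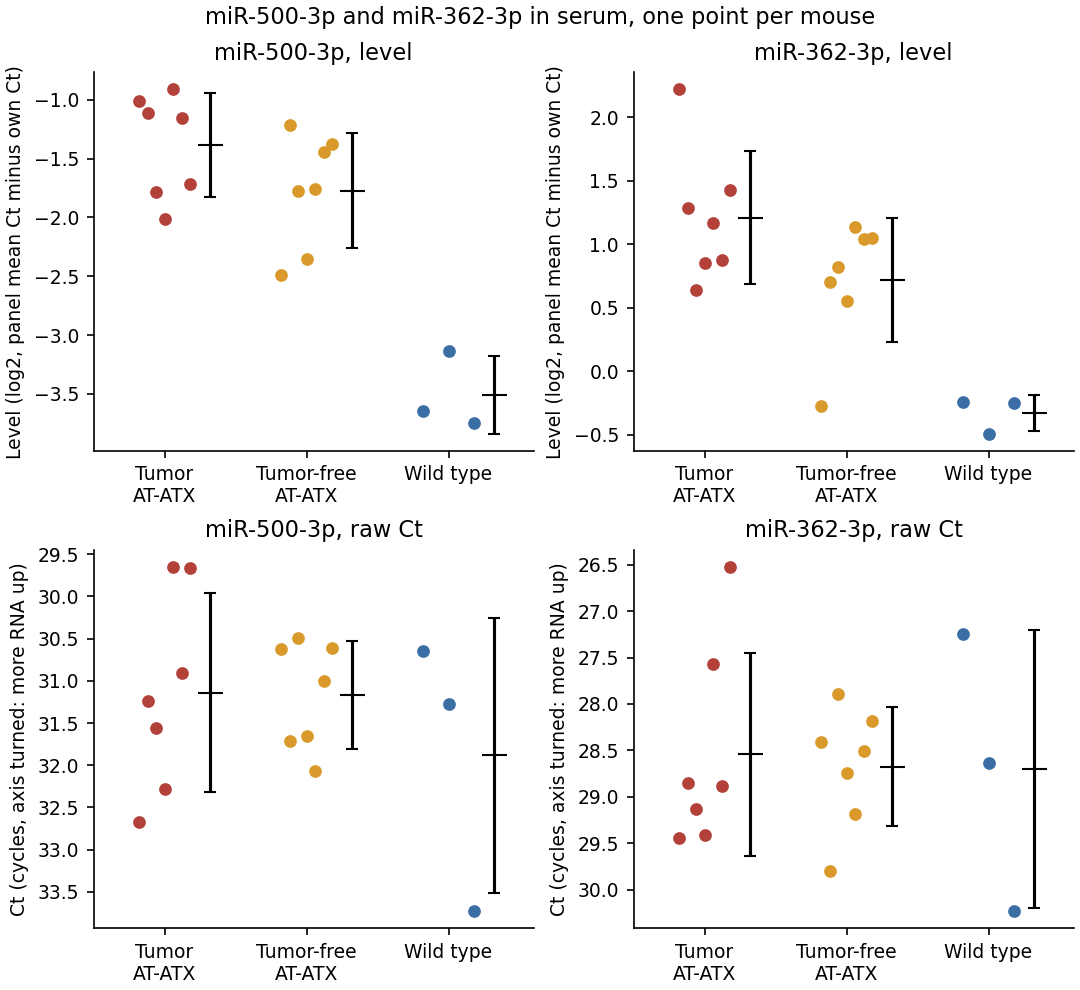
Upper panels plot the level (log2, relative to the panel mean) and lower panels the raw Ct in cycles, with the axis turned so that more RNA is up, for miR-500-3p (left) and miR-362-3p (right). Each point is 1 mouse and the bars are mean ± SD over 7 tumor, 7 tumor-free and 3 wild-type mice. The levels of miR-500-3p separate all transgenic from all wild-type mice, whereas the raw Ct values of the groups overlap for both miRNAs.

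The separation of tumor from wild-type mice was not kept on every scale: with raw Ct, spike-ins or reference miRNAs the ranges overlapped for both members, although with reference miRNAs the differences were larger, at 2.43 for miR-500-3p and 1.84 for miR-362-3p. Tumor-free mice stayed above wild type for miR-500-3p with reference miRNAs, and overlapped with raw Ct and spike-ins. miR-500-3p had a lowest, median and highest Ct of 29.65, 31.24 and 32.68 with tumors and 30.49, 31.00 and 32.07 without, against 30.64, 31.27 and 33.73 in the wild-type mice. miR-362-3p had 26.52, 28.88 and 29.45 with tumors and 27.89, 28.51 and 29.80 without, against 27.24, 28.63 and 30.23 in the wild-type mice. All groups overlapped for both miRNAs. On this scale tumor-free minus wild type was 0.72 for miR-500-3p and 0.03 for miR-362-3p, and tumor minus wild type was 0.74 and 0.16, in log2 units with the sign turned so that positive means more RNA. Across all 338 assays the median difference in raw Ct, signed the same way, was -1.22 for tumor minus wild type and -1.07 for tumor-free minus wild type. With spike-ins as the scale the tumor-free difference was 0.59 for miR-500-3p and -0.10 for miR-362-3p, so the direction for miR-362-3p turned, and the tumor difference was 0.85 and 0.27. The median over all assays was -1.08 and -1.19 there, for tumor and tumor-free minus wild type. Both members thus stood higher relative to the other miRNAs of the panel than in wild type, while with raw Ct and spike-ins the transgenic means of miR-362-3p differed from the wild-type mean by 0.27 or less.

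**Figure D2:**
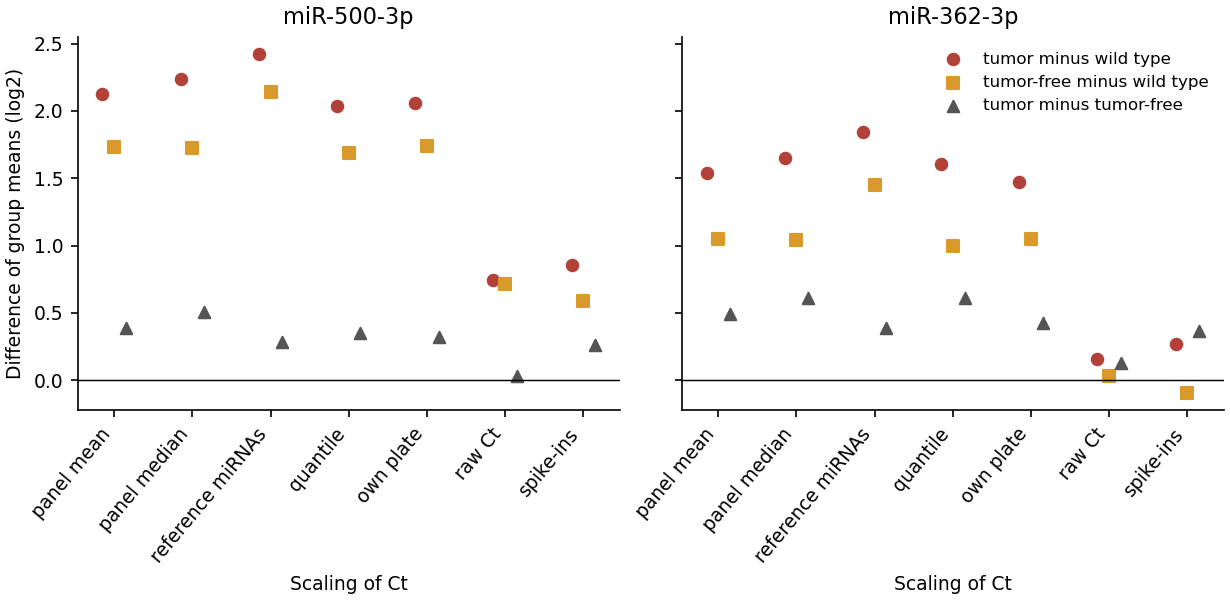
The difference of group means (log2, vertical axis) is plotted under 7 scalings of Ct (horizontal axis) for miR-500-3p (left) and miR-362-3p (right). Circles are tumor minus wild type, squares tumor-free minus wild type and triangles tumor minus tumor-free. Panel-based and reference miRNA scalings put both differences from wild type near or above 1, while raw Ct and spike-ins put those of miR-362-3p between -0.10 and 0.27.

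Between tumor and tumor-free transgenic mice neither member passed the test. miR-500-3p differed by 0.39 (SE 0.32, 95% interval -0.28 to 1.06, limma adjusted p = 0.591), and 4 of 7 tumor mice lay above all tumor-free mice. miR-362-3p differed by 0.49 (SE 0.33, 95% interval -0.19 to 1.17, limma adjusted p = 0.466), also with 4 of 7 tumor mice above all tumor-free mice. The intervals leave room for an increase of about 1 cycle and for a small decrease. With the shared leading number of the titles as a fixed block, a comparison that rests on 3 tumor and 3 tumor-free mice, the differences were -0.09 (limma adjusted p = 0.974) and 0.14 (limma adjusted p = 0.967), so that of miR-500-3p turned. In this comparison 5 of 338 assays (1.48%) passed at an adjusted p under 0.05. They were the mouse and rat miR-802-5p assays, miR-192-3p, miR-455-3p and miR-339-3p, named here after their values were seen.

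None of the other Clcn5 assays separated transgenic from wild-type mice in level. The panel has 11 assays of the group, 9 for mouse and 2 for rat, all tested. They cover both arms of miR-532, miR-188, miR-362 and miR-501, and the 3p arm of miR-500. Without the 2 members, 0 of 9 assays had tumor-free or tumor mice entirely above or below wild type. This held for 12.7% of all 338 assays for tumor-free mice and 9.17% for tumor mice. For 9 assays a count of 0 is near these shares, so it does not set these assays apart from the panel. Their median difference of levels was 0.08 for tumor-free minus wild type, against 0.03 over all 338 assays, and 0.48 for tumor minus wild type, against 0.19. miR-532-5p, from the first hairpin, differed by -0.25 and miR-532-3p by -0.24 for tumor-free minus wild type. The arms of miR-188 stood higher at 0.92 (5p) and 1.51 (3p), with overlapping groups, and miR-188-3p was not detected in 1 tumor-free mouse. In level, 8 of the 9 assays had a tumor minus wild type difference above 0, as did 183 of all 338. All 9 did with the panel median and with reference miRNAs, and 6 with quantile scaling. With raw Ct, 0 of the 9 assays did, while both members, chosen with this contrast known, did. The median of the 9 was -0.90, against -1.22 over all 338 assays. With spike-ins, again 0 of 9 and both members were above 0. There the median of the 9 was -0.78, against -1.08 over all assays.

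The opposite arm of miR-362 had a lower mean in tumor-free than in wild-type mice, with overlap. miR-362-5p had a level of -4.85 ± 0.66 in the 6 tumor mice where it was detected (SD), -5.50 ± 0.59 in 7 tumor-free mice and -5.00 ± 0.90 in 3 wild-type mice. The difference was 0.15 for tumor minus wild type and -0.50 for tumor-free minus wild type, but both moved with the scale. The tumor-free difference was -0.10 with reference miRNAs, -0.88 with quantile scaling, -1.52 with raw Ct and -1.65 with spike-ins. The tumor difference was 0.37 with reference miRNAs and below 0 with quantile scaling (-0.25), raw Ct (-0.91) and spike-ins (-0.78). This arm gave late signals, with Ct from 32.15 to 36.24, against 26.52 to 30.23 for the 3p arm. miR-501-3p, which has the seed of miR-500-3p, had -1.72 ± 0.62 in tumor mice, -2.57 ± 0.38 in tumor-free mice and -2.71 ± 0.28 in wild-type mice. Its difference was 0.99 for tumor minus wild type and 0.14 for tumor-free minus wild type.

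**Figure D3:**
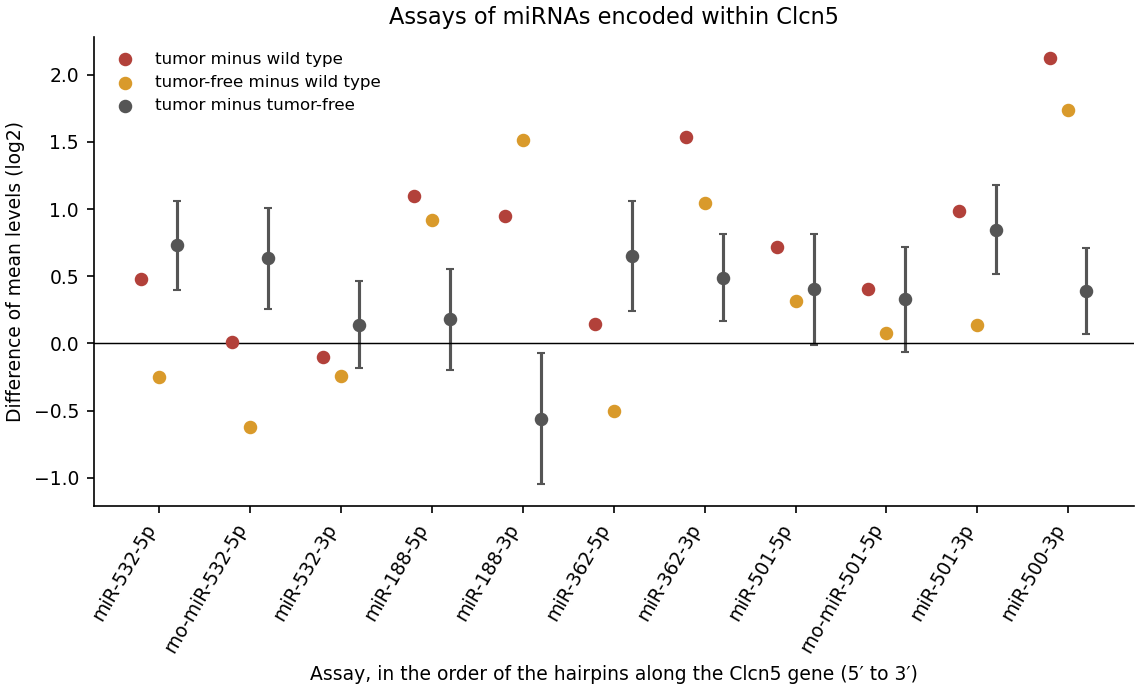
Differences of mean levels (log2, vertical axis) are shown for the 11 assays in the order of their hairpins along Clcn5. Red is tumor minus wild type, orange tumor-free minus wild type and grey tumor minus tumor-free, the last with SE from limma. miR-500-3p and miR-362-3p have the largest tumor minus wild type values of the 11, at 2.12 and 1.54. Both were chosen with their differences from wild type known, so this ranking is no separate result.

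In the tumor minus tumor-free comparison 10 of the 11 assays had a difference above 0, with a median of 0.40 against 0.14 over all 338 assays. Over all 338 assays, differences above 0 were also more frequent than differences below 0. Several of the 11 are arms of the same hairpin, or mouse and rat assays named for the same miRNA. They are not independent of each other, so this count alone does not show a shared shift of the group. With raw Ct 7 of the 11 were above 0, and the median over all 338 assays was -0.24. None of the 11 passed in limma once adjusted, and 2 reached an unadjusted p under 0.05, as did 16.9% of all assays. These were miR-501-3p at 0.85 (SE 0.33, limma adjusted p = 0.179), with 6 of 7 tumor mice above all tumor-free mice, and miR-532-5p at 0.73 (SE 0.33, limma adjusted p = 0.265). The exact permutation test passed 0 of 11 after adjustment and 2 before it, against 0 and 57 of all 338 assays. The rat assay of miR-532-5p gave 0.63 (limma adjusted p = 0.423). It is named for the same miRNA in rat and is not taken as an independent measurement. The mouse and rat sequences were not compared. miR-188-3p, at -0.56, was the 1 assay below 0.

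Ratios of a member to another Clcn5 assay in the same serum do not depend on a scaling that uses 1 value per mouse. By the inferred plates, both members lie on 1 plate with miR-188-5p, miR-362-5p, miR-501-3p and miR-532-5p. Their ratios to miR-188-3p, miR-501-5p and miR-532-3p cross plates, so these ratios can move with a difference between plates. All ratios were chosen after the data were seen, and only their differences between groups are read, since assay efficiencies differ. The log2 ratio of miR-500-3p to miR-501-3p was 0.33 ± 0.43 in tumor mice (SD, n = 7), 0.79 ± 0.46 in tumor-free mice (n = 7) and -0.80 ± 0.29 in wild-type mice (n = 3). Its lowest value was -0.20 with tumors and 0.11 without, and its highest was -0.62 in wild-type mice. All 14 transgenic mice thus had more miR-500-3p per miR-501-3p than any wild-type mouse. The ratio of miR-500-3p to miR-362-5p separated them too, at 3.40 ± 0.88 in 6 tumor mice, 3.73 ± 0.66 in 7 tumor-free mice and 1.49 ± 0.58 in 3 wild-type mice.

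Of the 8 ratios of miR-500-3p to other mouse assays of Clcn5, 5 had no overlap between tumor-free and wild-type mice and 4 had none between tumor and wild-type mice. All 8 mean differences were above 0 in both comparisons. With all 337 other tested assays as partners, 140 and 137 ratios of miR-500-3p lay entirely higher in transgenic mice, in the same order. For miR-362-3p they were 67 and 87. Such counts, for Clcn5 partners too, restate the contrast on which both members were chosen. The ratio of miR-500-3p to miR-362-3p, the other member, was -2.60 ± 0.49 in tumor mice, -2.49 ± 0.36 in tumor-free mice and -3.18 ± 0.47 in wild-type mice, with overlap. For miR-362-3p, 3 of 7 ratios had no overlap between tumor-free and wild-type mice, those to miR-362-5p, miR-501-3p and miR-532-5p, and 1 had none between tumor and wild-type mice, that to miR-532-3p, which crosses plates. With each plate set against its own mean, the tumor minus wild type difference of this ratio was 1.43 in place of 1.64, still without overlap, the counts for miR-500-3p were again 5 and 4, and those for miR-362-3p were 4 and 1. The ratio of its own arms, 3p to 5p, was 5.89 ± 0.83 in 6 tumor mice, 6.22 ± 0.73 in 7 tumor-free mice and 4.67 ± 1.03 in 3 wild-type mice. Only the tumor-free group was clear of wild type in this ratio, by a narrow margin. Its lowest value was 5.59, against a highest of 5.55 in wild-type mice and a lowest of 5.26 in tumor mice.

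**Figure D4:**
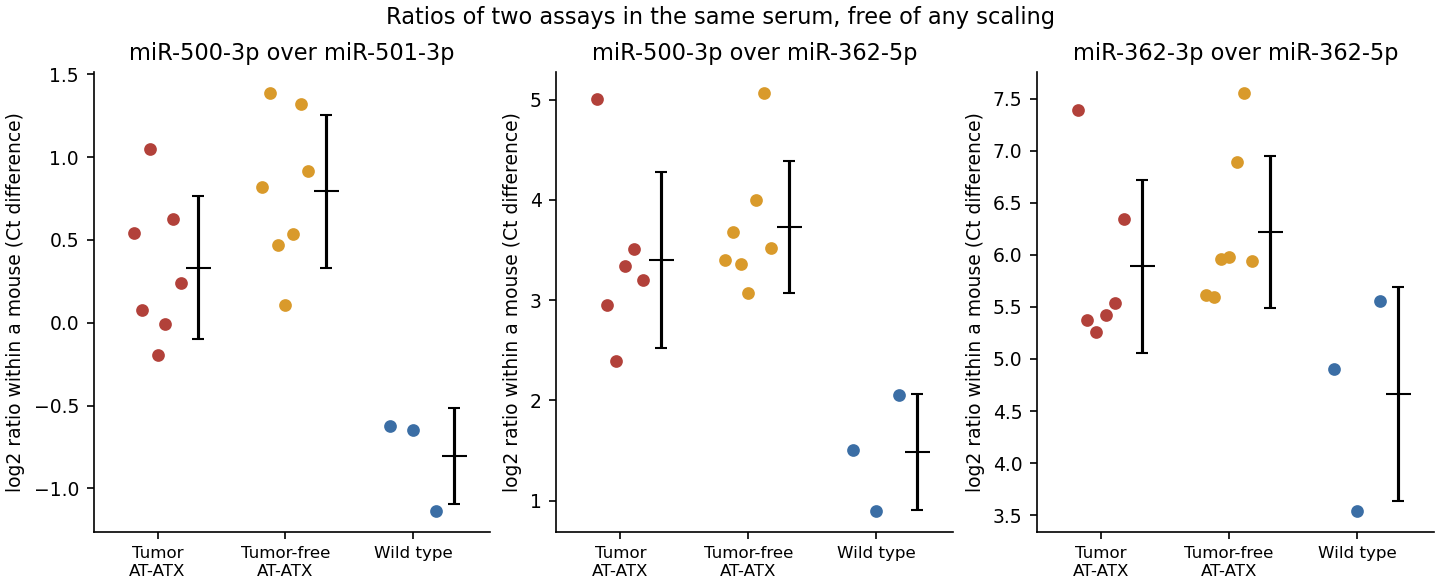
The log2 ratio of the named assays within a mouse (vertical axis, Ct difference) is plotted for tumor, tumor-free and wild-type mice, with 1 point per mouse and bars for mean ± SD. In the left and middle panels every transgenic mouse lies above every wild-type mouse. In the right panel the tumor-free mice do by a narrow margin (lowest 5.59, against a highest of 5.55 in wild type), and the tumor mice overlap with wild type.

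Against all 337 other tested assays, miR-500-3p had 140 ratios in which tumor-free mice lay entirely above wild type and 137 in which tumor mice did. miR-362-3p had 67 and 87 such ratios in the same order. The median assay had 4 and 5. These counts restate the contrast on which both were chosen, without scaling and over both plates. Between tumor and tumor-free mice, none of the 15 Clcn5 ratios differed after adjustment (exact permutation tests, two-sided, smallest p = 0.0793, smallest adjusted p = 0.588, with 0 of 15 at an unadjusted p under 0.05).

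Within groups, how closely both members varied together depended on the scaling. With the group means subtracted, the levels of miR-500-3p and miR-362-3p had r = 0.55 over 17 mice (permutation p = 0.0345, adjusted p = 0.161 over 5 relations) and rho = 0.47 (permutation p = 0.0826, adjusted p = 0.206). Without the 2 mice farthest from the median of miR-500-3p, r was 0.32. Leaving out extreme mice narrows the range, which by itself can lower r, so this value does not settle their part. The r was 0.49 within tumor mice and 0.73 within tumor-free mice. It was 0.39 without tumor-free replicate 1, which was the lowest transgenic mouse in both. In raw Ct, where all assays of a serum share its overall amount, r was 0.91. It was 0.92 with spike-ins, 0.90 with reference miRNAs and 0.65 with the panel median as the scale.

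**Figure D5:**
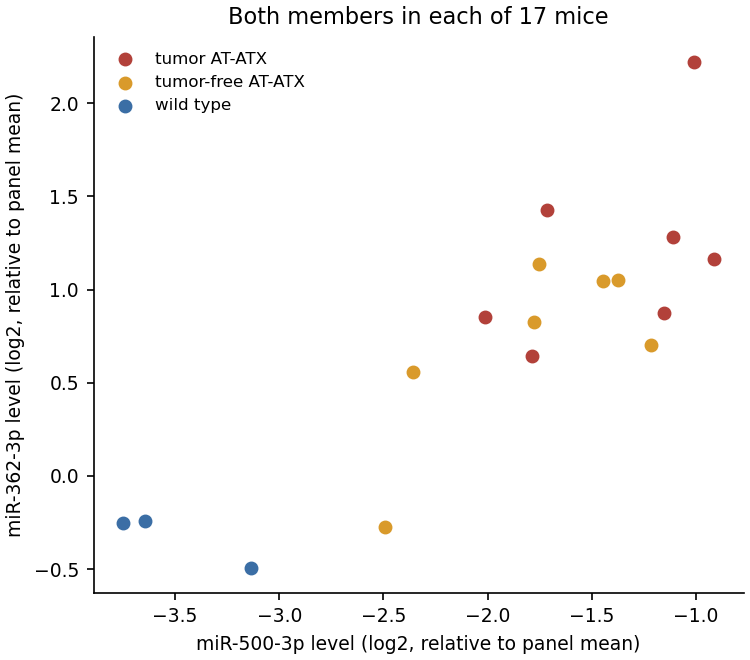
The level of miR-500-3p (horizontal axis, log2) is plotted against that of miR-362-3p (vertical axis, log2), with 1 point per mouse, for 7 tumor, 7 tumor-free and 3 wild-type mice. The wild-type mice sit apart at the left, and tumor-free replicate 1, at -2.49 and -0.27, is the transgenic mouse nearest to them.

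The assays most like each member were ranked by r over the 17 mice, again with the group means subtracted, among the 251 others detected in all mice, as a description. For miR-500-3p they were miR-21a-5p (r = 0.74), the mouse and rat assays of miR-223-3p (0.61 and 0.60), miR-501-3p (0.58) and miR-532-5p (0.57). For miR-362-3p they were the rat and mouse assays of miR-223-3p (0.72 and 0.70), miR-21a-5p (0.66), miR-24-3p (0.61) and miR-23a-3p (0.60). miR-362-3p ranked 8 for miR-500-3p, and miR-500-3p ranked 12 for miR-362-3p. miR-532-3p, of the same gene, had -0.19 and -0.22. All these levels share 1 panel mean per mouse. miR-21a-5p and miR-223-3p are also on the platelet and myeloid marker list used below. That list as a whole had r = 0.06 with miR-500-3p and 0.12 with miR-362-3p within groups.

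Markers of blood cells and tissues were set beside the members. The hemolysis index, Ct of miR-23a-3p minus Ct of the red cell miRNA miR-451a, was 3.97 ± 1.97 in tumor mice, 4.38 ± 0.84 in tumor-free mice and 5.61 ± 2.07 in wild-type mice (SD). Within groups its r was -0.16 with miR-500-3p (permutation p = 0.546, rho = -0.14, permutation p = 0.574) and -0.46 with miR-362-3p (permutation p = 0.0645, 0.161 after adjustment), for which rho was -0.50 (permutation p = 0.0367, 0.183 after adjustment). Without the 2 mice farthest in the index these r were -0.06 and -0.43. Within tumor mice r was -0.59 for miR-500-3p and -0.68 for miR-362-3p, against 0.12 and -0.07 within tumor-free mice, and the difference between the groups was not tested. miR-23a-3p, a part of the index, itself had r = 0.60 with miR-362-3p. The r of the index with miR-362-3p therefore does not stand for red cell miRNA alone. The mean Ct of the shared assays had r = 0.27 with miR-500-3p (permutation p = 0.295, rho = 0.22, permutation p = 0.397) and 0.42 with miR-362-3p (permutation p = 0.103, rho = 0.20, permutation p = 0.447), and 0.11 and 0.33 without the 2 farthest mice.

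Mean levels of the marker lists were 6.38 to 9.63 (tumor), 6.86 to 8.66 (tumor-free) and 7.55 to 9.77 (wild type) for 4 of 6 red blood cell miRNAs on the panel. They were 1.82 to 3.86, 3.43 to 4.83 and 3.92 to 5.06 for 5 of 5 liver miRNAs, and 3.60 to 5.69, 4.44 to 5.48 and 5.13 to 5.53 for 4 of 4 platelet and myeloid miRNAs. For 6 of 7 muscle miRNAs they were -3.51 to 2.76, -3.29 to 1.33 and -4.92 to -1.47. No marker on the panel was undetected throughout. The mean of the liver list was lowest in tumor mice (2.77, against 4.09 in tumor-free and 4.45 in wild-type mice). On this scale the highest tumor mouse, at 3.86, lay just below the lowest of the 3 wild-type mice, at 3.92. The mean of the muscle list was higher in both transgenic groups (-1.15 in tumor, -0.80 in tumor-free and -3.03 in wild-type mice), and the 3 ranges overlapped. Within groups the lists had r with miR-500-3p of -0.02 (red blood cell), 0.18 (liver), 0.06 (platelet and myeloid) and -0.20 (muscle). With miR-362-3p these were -0.37, -0.03, 0.12 and 0.14 in the same order. The part of the marker lists in the differences of both members was not tested.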

How the data were processed

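Serum RNA (50 µL per mouse, blood from necropsy) was measured by SYBR Green PCR of 40 cycles on 2 panel plates, per the labels' protocols. The deposited values are Ct per assay and mouse, not normalized per the file's name. For thresholds, plate calibration and the detection limit, the settings are not given in the sources used here. Of 365 assays, 8 are controls. Empty cells were taken as not detected, and the highest Ct was 37.0. The last decimals split the assays into sets of 245 and 120, which were taken as the 2 plates. This assignment was inferred from the values. In 4 mice the last decimals did not differ between these sets (tumor replicate 1 and tumor-free replicates 4, 5 and 7).

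Assays detected in at least 5 tumor, 5 tumor-free and 2 wild-type mice were tested (338 of 357). Levels on the log2 scale, computed from the deposited Ct, entered 1 fit of all groups in limma 3.58.1 (R 4.3.3), with Benjamini-Hochberg adjustment over 338 assays and a threshold of 0.05. This fit was checked on simulated data with shifts larger than the differences of the members. Its power at their size was not checked. Ratios were compared by exact permutation tests, and correlations by 100000 reorderings within groups (Python 3.11.15, numpy 2.4.6, pandas 2.3.3, scipy 1.17.1). The number of mice limits precision. No 2 mice had identical values (smallest SD of a difference 0.841 cycles).

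The members, the gene lists and the tests were chosen with earlier results of these data known. Named were both members, all Clcn5 assays, assays sharing a seed, the 5 assays most like each member, and miR-23a-3p and miR-451a of the hemolysis index. Other scalings, detection limits, filters, fits, left-out mice and a block on the number in the titles were tried.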

Additional observations from a re-analysis of the deposited data

Results flagged for a closer look

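Among 26 groups of 6 or 7 mice checked for the Clcn5 assays and 2 of their ratios, 2 single mice stood far from the rest of their group, about what chance gives at 1 in 20. The level of miR-362-3p in tumor-free replicate 1 was -0.27, and the next lowest tumor-free mouse had 0.56. Without this mouse tumor-free minus wild type was 1.21 in place of 1.05, and the tumor-free mice lay entirely above wild type. The level of miR-362-5p in tumor replicate 2 was -6.11, and the next lowest of the 6 tumor mice with a value had -4.92.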

How the results depend on the processing

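The tumor minus tumor-free differences of both members stayed above 0 and short of the threshold in all 15 other settings fixed for this test and in 17 fits without 1 mouse (adjusted p 0.302 to 0.998). They ranged from 0.03 to 0.51 for miR-500-3p and from 0.13 to 0.61 for miR-362-3p, and without 1 mouse from 0.27 to 0.49 and from 0.32 to 0.58. Without 1 mouse, tumor-free minus wild type was 1.62 to 1.92 for miR-500-3p and 0.97 to 1.21 for miR-362-3p, and tumor minus wild type 2.00 to 2.31 and 1.37 to 1.63. Without tumor replicate 1 and wild-type replicate 1, the mice with the highest and lowest mean Ct, all 6 differences kept their direction, a setting chosen after seeing the data.

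Differences from wild type moved by more than the spread between mice with raw Ct and with spike-ins. miR-500-3p stood at 0.72 and 0.59 for tumor-free and at 0.74 and 0.85 for tumor mice. miR-362-3p stood at 0.028 and -0.096 (turned below 0) for tumor-free and at 0.16 and 0.27 for tumor mice. Mean Ct was lower in wild-type mice, and both scalings keep that offset.

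The count of 5 assays passing between tumor and tumor-free mice was 0 with reference miRNAs, raw Ct, spike-ins, exact permutation and without the 4 mice with 1 ending of decimals. It was 13 with the hemolysis index as covariate and 8 with the transgenic groups only. Without 1 mouse it was 2 to 10: leaving out tumor replicate 3, 4, 5 or 7 gave 2, 2, 10 and 8, and leaving out tumor-free replicate 1, 2, 3 or 6 gave 2, 9, 3 and 2. Assays without overlap between tumor-free and wild-type mice were 43, but 10 with raw Ct, 66 without the 4 mice, and 43 to 108 without 1 mouse (108, 72 and 65 without wild-type replicate 1, 2 and 3). Between tumor and wild-type mice they were 31, but 17 with reference miRNAs, 13 with raw Ct, 14 with spike-ins, and 31 to 57 without 1 mouse (57 and 51 without wild-type replicate 1 and 2). The cause was not tested.

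The correlation of both members (r = 0.55) was 0.42 with quantile scaling (permutation p = 0.103) and 0.47 with own-plate scaling (permutation p = 0.086). It was 0.55 without the 4 mice (permutation p = 0.13), and 0.39 to 0.61 without 1 mouse. Higher values came with the panel median (0.65), reference miRNAs (0.90), raw Ct (0.91) and spike-ins (0.92). The titles of the transgenic mice share 2 leading numbers between the groups, of unstated meaning. This number was tried as a replicate block after seeing the data. As a fixed block it gave -0.094 for miR-500-3p, which turned below 0, and 0.14 for miR-362-3p, with 0 assays passing (13 at an unadjusted p under 0.05, limma). As a random block it gave 0.37 and 0.49, with 6 assays passing and a correlation of 0.070 between mice of 1 number. The fixed block compares 3 tumor with 3 tumor-free mice, and whether the number pairs mice is not known.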
